A study of Homo sapiens with 12 samples.

Results

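MIR205HG, UCA1, GAS5, MIR22HG, SNHG1 and SNHG12 are long noncoding RNA (lncRNA) genes grouped as hosts of microRNAs and small nucleolar RNAs (snoRNAs). They are 6 of the 18866 lncRNA genes, and of the 62700 genes of every kind, in the GENCODE 44 annotation of GRCh38. The 6 genes were chosen by name after summits of the EGFR chimera had been seen at some of them, so the presence, number and score of their summits describe the choice and were not tested. Every summit inside the limits of a gene extended by 1000 bp on each side was assigned to it, which gave 22 of 2186 summits over 4 lists.

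The cells were B2B1, a single clone derived from MCF10A-5E, an established line of human breast epithelium, and engineered with the chimeras NGFR-EGFR-FRB with a GluGlu tag and NGFR-Erbb2-FKBP, whose Erbb2 part is from rat, with an HA tag. In both conditions the cells carried both chimeras and grew in overlay culture, on plastic under medium with dilute Matrigel, a basement membrane extract. Minus AP cultures received 0.1% ethanol and plus AP cultures 0.5 µM AP21967 (AP), a synthetic ligand that heterodimerizes FRB with FKBP. Both treatments lasted 24 h before harvest on day 7. Chromatin immunoprecipitation followed by sequencing (ChIP-seq) with the GluGlu antibody gave 2 replicate libraries a condition, the comparison being where the EGFR chimera is found on chromatin without and with heterodimer. The other 8 of 12 libraries, which are input chromatin and naive IgG, were not analysed here, so no level in a control immunoprecipitate can be set beside these summits.

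A host gene is transcribed as a long precursor from which a small RNA is cut. Most snoRNAs of vertebrates lie in introns and are trimmed out of the spliced intron, and those of the C/D box kind carry the short motifs C and D and guide methylation of ribosomal RNA. Several hosts, GAS5 and SNHG1 among them, have transcripts that begin with a run of pyrimidines typical of genes of the translation machinery. MicroRNAs are cut from a hairpin in an intron or exon of the primary transcript, and bases near their 5′ end, the seed, pair with target mRNAs. miR-205 is a microRNA of epithelia and is abundant in basal cells of the breast.

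The label fits 5 of the 6 genes. MIR205HG (chr1:209428817-209432848, plus strand, 4032 bp) holds the microRNA gene MIR205 in intron 4 of its canonical transcript of 5 exons. MIR22HG (chr17:1711447-1717174, minus strand, 5728 bp) holds MIR22 in exon 4 of 4. SNHG1 (chr11:62851978-62855953, minus strand, 3976 bp) holds 9 C/D box snoRNA genes, 7 in GENCODE and 2 in RefSeq alone, each in an intron of its own. The entries in introns 5 and 9 share the name SNORD22. SNHG12 (chr1:28578538-28583132, minus strand, 4595 bp) holds SNORD99, SNORA61, SNORA44 and SNORA16A in 4 introns. GAS5 (chr1:173858559-173868882, minus strand, 10324 bp) holds no small RNA gene in GENCODE 44 but 11 in RefSeq, of which 10 are C/D box genes in introns and SNORA103 spans the edge of an exon. UCA1 (chr19:15828206-15836328, plus strand, 8123 bp) holds no snoRNA or microRNA gene in either annotation, so the name of host does not apply to it. In all, 26 small RNA genes lay within the 6 genes.

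The microRNAs that MIR205HG and MIR22HG encode are shown because they are the products by which these hosts are named. The mature sequences are from RefSeq (GRCh38.p14), with the seed, bases 2 to 8, in capitals, and no seed is shared among the 4.
hsa-miR-205-5p: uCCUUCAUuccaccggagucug
hsa-miR-205-3p: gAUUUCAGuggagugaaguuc
hsa-miR-22-3p: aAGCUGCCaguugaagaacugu
hsa-miR-22-5p: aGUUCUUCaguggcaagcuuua

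One summit fell inside the MIR205 hairpin (chr1:209432133-209432242, plus strand, RefSeq, GRCh38.p14), shown with both mature arms in capitals. The summit, of minus AP replicate 1, was at base 59 of 110, in the loop, 4 bp past the end of the 5p arm and 12 bp before the start of the 3p arm.
MIR205 hairpin: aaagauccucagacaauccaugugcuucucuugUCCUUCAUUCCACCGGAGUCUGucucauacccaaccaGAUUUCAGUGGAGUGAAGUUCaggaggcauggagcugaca

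The start of MIR205HG carried the highest scoring member summits. The RefSeq promoter window of the gene (chr1:209428570-209428869, plus strand, GRCh38.p14, 300 bases) is shown with the 21 bases around each of the 2 summits that fell inside it in capitals. The first, at base 43, is of minus AP replicate 1 and the second, at base 258, is of plus AP replicate 2.
MIR205HG promoter: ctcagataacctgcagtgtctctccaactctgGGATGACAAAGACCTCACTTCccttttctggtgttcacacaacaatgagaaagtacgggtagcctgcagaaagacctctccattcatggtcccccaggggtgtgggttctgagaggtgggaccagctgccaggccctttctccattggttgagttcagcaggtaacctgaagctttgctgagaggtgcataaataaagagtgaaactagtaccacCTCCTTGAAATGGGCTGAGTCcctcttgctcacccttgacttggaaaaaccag

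The first 111 genomic bases from the canonical start are shown for GAS5 (chr1:173867879-173867989, minus strand, GRCh38) and SNHG1 (chr11:62855812-62855922, minus strand, GRCh38). They cover exon 1 and part of intron 1, since each gene held a summit in the first intron. The 21 bases around the summit are in capitals. Of the first 10 bases, 6 were pyrimidines in GAS5 and 4 in SNHG1, counted from the start in GENCODE 44. The 6 in GAS5 form an unbroken run from the first base. This count depends on the annotated start. The RefSeq start lies 1056 bp from the one used in GAS5, outside the bases shown, and the bases there were not counted. In SNHG1 it lies 37 bp downstream of the one used, inside the bases shown, at a stretch made mostly of pyrimidines.
GAS5 start: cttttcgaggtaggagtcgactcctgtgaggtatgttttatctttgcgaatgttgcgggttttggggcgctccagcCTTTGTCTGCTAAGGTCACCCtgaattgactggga
SNHG1 start: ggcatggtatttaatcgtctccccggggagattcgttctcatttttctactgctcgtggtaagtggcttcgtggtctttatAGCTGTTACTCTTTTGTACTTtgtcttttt

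SNORD76 (chr1:173866635-173866715) and SNORD81 (chr1:173864146-173864222), read on the minus strand of GRCh38, are the snoRNA genes of GAS5 at or nearest to a summit. Capitals mark TGATGA, the C box, found in the first 16 bases, and CTGA, the D box, found in the last 12.
SNORD76: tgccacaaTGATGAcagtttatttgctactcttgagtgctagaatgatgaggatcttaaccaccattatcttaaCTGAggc
SNORD81: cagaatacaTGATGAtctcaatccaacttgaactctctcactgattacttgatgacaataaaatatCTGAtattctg
Over the 10 C/D box genes of GAS5, 6 had TGATGA in this form and 10 had CTGA. Over the 9 of SNHG1 these numbers were 5 and 9.

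The 4 lists differed in length and make-up, which bears on every count below. They held 739 summits in minus AP replicate 1, 56 in minus AP replicate 2, and with AP 1094 in replicate 1 and 297 in replicate 2. In the replicate 1 lists 145 of 739 and 206 of 1094 summits were within 1000 bp of a gene, against 55 of 56 and 284 of 297 in the replicate 2 lists. The score of a summit is the authors' −log10 of its q-value, and its highest value was 429.5 and 609.1 in the replicate 1 lists but 17.0 and 30.4 in the replicate 2 lists. Scores depend on depth, which is unknown here, and were therefore read only within a list, as ranks. A gene without a summit had none detectable at that depth.

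MIR205HG had a summit in each of the 4 lists, GAS5 in 3, UCA1 and SNHG1 in 1, and MIR22HG and SNHG12 in none. In minus AP replicate 1 the single member with a summit was MIR205HG, with 5 summits. In minus AP replicate 2 MIR205HG had 3 and GAS5 1. The plus AP replicate 1 list had 3 at MIR205HG and 1 at GAS5, and that of plus AP replicate 2 had 2 at MIR205HG, 4 at GAS5, 2 at SNHG1 and 1 at UCA1. The summits thus came to 9 without AP and 13 with AP. Within replicates the direction differed, with 5 without and 4 with AP in replicate 1 and 4 without and 9 with AP in replicate 2.

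For background, 312 lncRNA genes of GENCODE 44 contain a snoRNA, scaRNA or microRNA gene on their own strand, and the share of these with a summit stands beside each count of members. With 1 member in minus AP replicate 1, the share of the 312 was 2.56% (8 genes). It was 1.92% (6 genes) in minus AP replicate 2, where 2 members had a summit. Among the plus AP lists it was 3.21% (10 genes) in replicate 1, with 2 members, and 6.41% (20 genes) in replicate 2, with 4 members. Both minus AP lists held 1 member, MIR205HG, and 0.962% of the 312 genes. Both plus AP lists held 2 members, MIR205HG and GAS5, and 1.92% of the 312. All 4 lists held 1 member, MIR205HG, and 0.962% of the 312, while at least 1 list held 4 members and 8.01% of the 312. With each list cut to its 56 highest scores, as many as the shortest list holds, 0 members were in both lists of either condition or in all 4. With hosts defined by name instead, 116 genes that include all 6 members, the shares in the single lists were 2.59% and 4.31% without AP and 6.03% and 12.9% with AP, in order of replicate. In both minus AP lists and in all 4 it was 1.72%, in both plus AP lists 5.17% and in at least 1 list 13.8%. Because the members were selected on these lists, nothing is read from the difference. GAS5 and UCA1 are not among the 312, since GENCODE 44 places no small RNA gene in them.

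**Figure D1:**
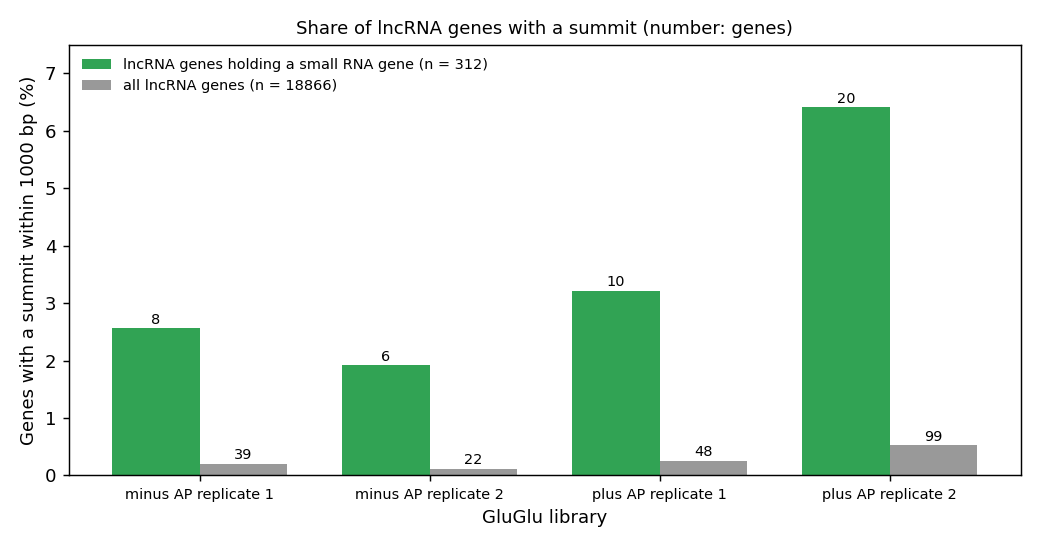
Percentage of lncRNA genes with a summit within 1000 bp of the gene (y axis) in each GluGlu library (x axis), for the lncRNA genes that hold a small RNA gene (green) and for all lncRNA genes (grey), with the number of genes above each bar. The green bars run from 1.92% to 6.41% and the grey bars from 0.117% to 0.525%, with the highest of both in plus AP replicate 2.

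MIR205HG, the host of miR-205, carried 13 of the 22 summits. Near its start, minus AP replicate 1 had a summit 207 bp upstream of the first base of the canonical transcript (score 16.6, rank 158 of 739), and minus AP replicate 2 had one 55 bp downstream in exon 1 (14.5, rank 2 of 56). With AP, replicate 1 had a summit at 92 bp in exon 1 (25.8, rank 141 of 1094). Replicate 2 with AP had one at 8 bp in exon 1 (30.4), which ranked 1 of 297, the highest score of that list. All 4 libraries thus had a summit within 500 bp of the start, the minus AP pair 262 bp apart and the plus AP pair 84 bp apart, and it was the highest scoring summit of the gene in each library. In rank it lay in the top 21.4% of its list in minus AP replicate 1, 3.57% in minus AP replicate 2, and with AP 12.9% in replicate 1 and 0.337% in replicate 2.

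Inside the gene the lists with and without AP differed in where summits lay. Both minus AP libraries had a summit in intron 2, at 1083 bp (8.37, rank 266 of 739) and 1150 bp (14.2, rank 4 of 56), 67 bp apart. The nearest plus AP summit was 991 bp from the first and 1058 bp from the second. Intron 2 therefore held a summit in 2 of 2 minus AP lists and 0 of 2 plus AP lists, but 2 against 2 libraries cannot give a two-sided exact permutation p below 0.333. A summit is a single point of a peak, and the extent of the peaks was not examined. A list without a summit in intron 2 can therefore still have a peak that covers it. The study describes EGFR occupancy over the promoter and along the gene body of MIR205HG. A summit in intron 3, at 2330 bp (7.54, rank 311 of 739), was in minus AP replicate 1 and had no partner within 1000 bp in another list.

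Around MIR205 itself, minus AP replicate 1 had the summit inside the hairpin, at 3372 bp (3.56, rank 553 of 739). Plus AP replicate 1 had one 255 bp downstream of the hairpin, at 3678 bp in intron 4 (4.48, rank 639 of 1094). Neither replicate 2 list had a summit in intron 4. Both intron 4 summits ranked below the middle of their lists, and they were 306 bp apart. The primer table of the study names a pair MIR205 (forward cccaaatgtgtgattccggg and reverse tgagacagactccggtggaa), which matched chr1:209432040-209432192 of GRCh38 exactly, a product of 153 bp across the start of the hairpin. The nearest summit lay inside this product in minus AP replicate 1 and 684 bp away in minus AP replicate 2. With AP it was 305 bp away in replicate 1 and 1266 bp away in replicate 2. The summits near the gene start lay outside this product, which begins 3221 bp downstream of the start. By ChIP followed by quantitative PCR for MIR205HG, the study reports specific binding that did not depend on AP. The distance of a summit from the product does not measure binding at the product.

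Past the 3′ end of MIR205HG all 4 libraries had a further summit. The minus AP summits were 14 bp (2.73, rank 633 of 739) and 28 bp (1.56, rank 54 of 56) beyond the last base of the gene. The plus AP summits were 570 bp (1.42, rank 1066 of 1094) and 610 bp (4.79, rank 115 of 297) beyond it. Among these 4 summits, those of the same condition were 14 bp and 40 bp apart and those of different conditions 542 bp to 596 bp apart. The intron 4 summit of plus AP replicate 1, before the gene end, was closer to the minus AP pair, at 365 bp and 379 bp. A shift in position with AP was not tested. In rank, 3 of the 4 summits past the gene end were between 85.7% and 97.4% of the way down their lists. That of plus AP replicate 2 was at 38.7%. Beyond the extended limits of the gene the next summit was 16.6 kb away in plus AP replicate 2 and at least 14.2 Mb away in the other 3 libraries.

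**Figure D2:**
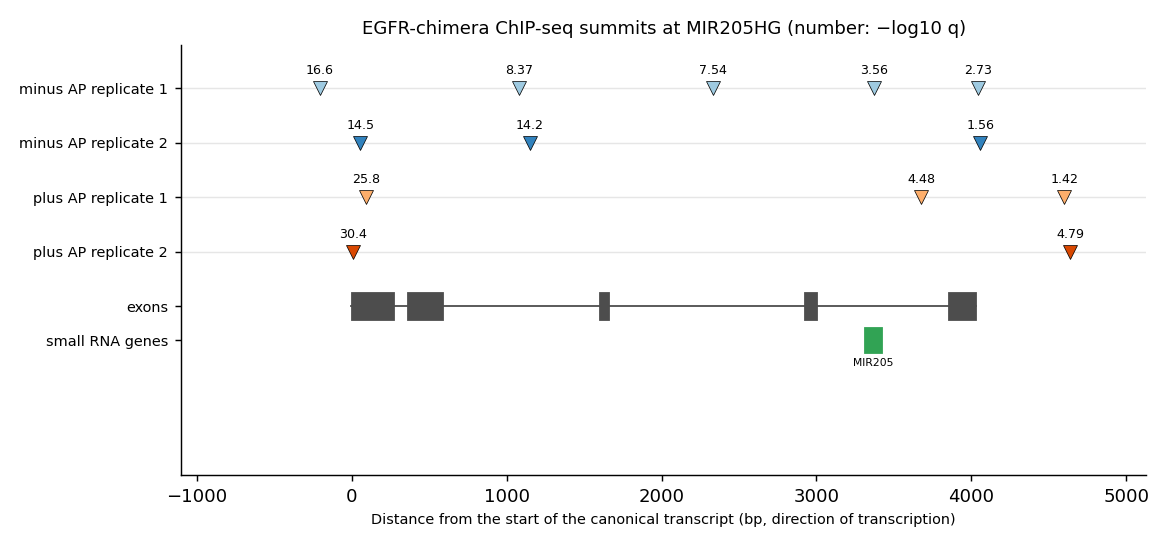
Summits at MIR205HG (triangles) by library (rows) against the distance (bp) to the canonical start (x axis), with the score of each, the −log10 q, above it, exons as dark boxes and the MIR205 gene in green. Each library has a summit within 207 bp of the start and another past the last exon, and the summits in introns 2 and 3 are in minus AP libraries.

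GAS5, a host of many C/D box snoRNAs whose spliced RNA is short-lived in growing cells, had summits in 3 lists. Minus AP replicate 2 had a summit in intron 1, 86 bp downstream of the canonical start and 158 bp upstream of SNORD74 (4.28, rank 26 of 56). Plus AP replicate 1 had one in intron 1 at 910 bp, 36 bp before exon 2 and 141 bp upstream of SNORD75 (1.97, rank 1018 of 1094). Minus AP replicate 1 had none within 8.52 Mb. The plus AP replicate 1 summit was among the lowest of its list. At a minimum score of 2 GAS5 no longer had a summit in both lists of a condition. Its summits in minus AP replicate 2 and plus AP replicate 2 remained, the nearest 716 bp apart.

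Plus AP replicate 2 had 4 summits at GAS5. One was in intron 1 at 802 bp (7.1, rank 61 of 297), 108 bp from that of plus AP replicate 1, and this was the closest pair between lists at the gene. One was in intron 3 at 1329 bp (6.30, rank 67), at base 56 of the 81 bases of SNORD76. The other 2 were in intron 11: at 3735 bp, 3 bp past exon 11 and 32 bp upstream of SNORD81 (2.84, rank 227), and at 5028 bp, inside the antisense gene GAS5-AS1 and 1185 bp downstream of SNORD81 (6.30, rank 67). In this library 1 of 11 small RNA genes of GAS5 was directly under a summit. There was no summit between 1329 bp and 3735 bp, where SNORD77, SNORA103, SNORD44, SNORD78, SNORD79, SNORD80 and SNORD47 lie. All 6 summits of GAS5 were in introns of the canonical transcript. ZBTB37, a protein-coding gene on the opposite strand, starts 93 bp from GAS5, so the minus AP replicate 2 summit near the start lay close to both.

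SNHG1, whose introns carry C/D box snoRNAs and whose start faces that of the amino acid transporter subunit gene SLC3A2, had summits in plus AP replicate 2 alone of the 4 lists. The first was in intron 1, 91 bp from the canonical start and 199 bp upstream of SNORD25 (5.38, rank 88 of 297). The second was in the last exon, exon 11, 114 bp before the end of the gene and 818 bp downstream of SNORD22 in intron 9 (2.84, rank 227). SLC3A2 starts 82 bp from SNHG1 on the other strand, and the assignment to SNHG1 follows from the limits of the genes and not from the signal. None of the 9 snoRNA genes held a summit. All 4 libraries had a summit 10.2 kb to 10.4 kb away, at WDR74 and RNU2-2P, so the other 3 lists had summits in the neighbourhood but none detectable at SNHG1.

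**Figure D3:**
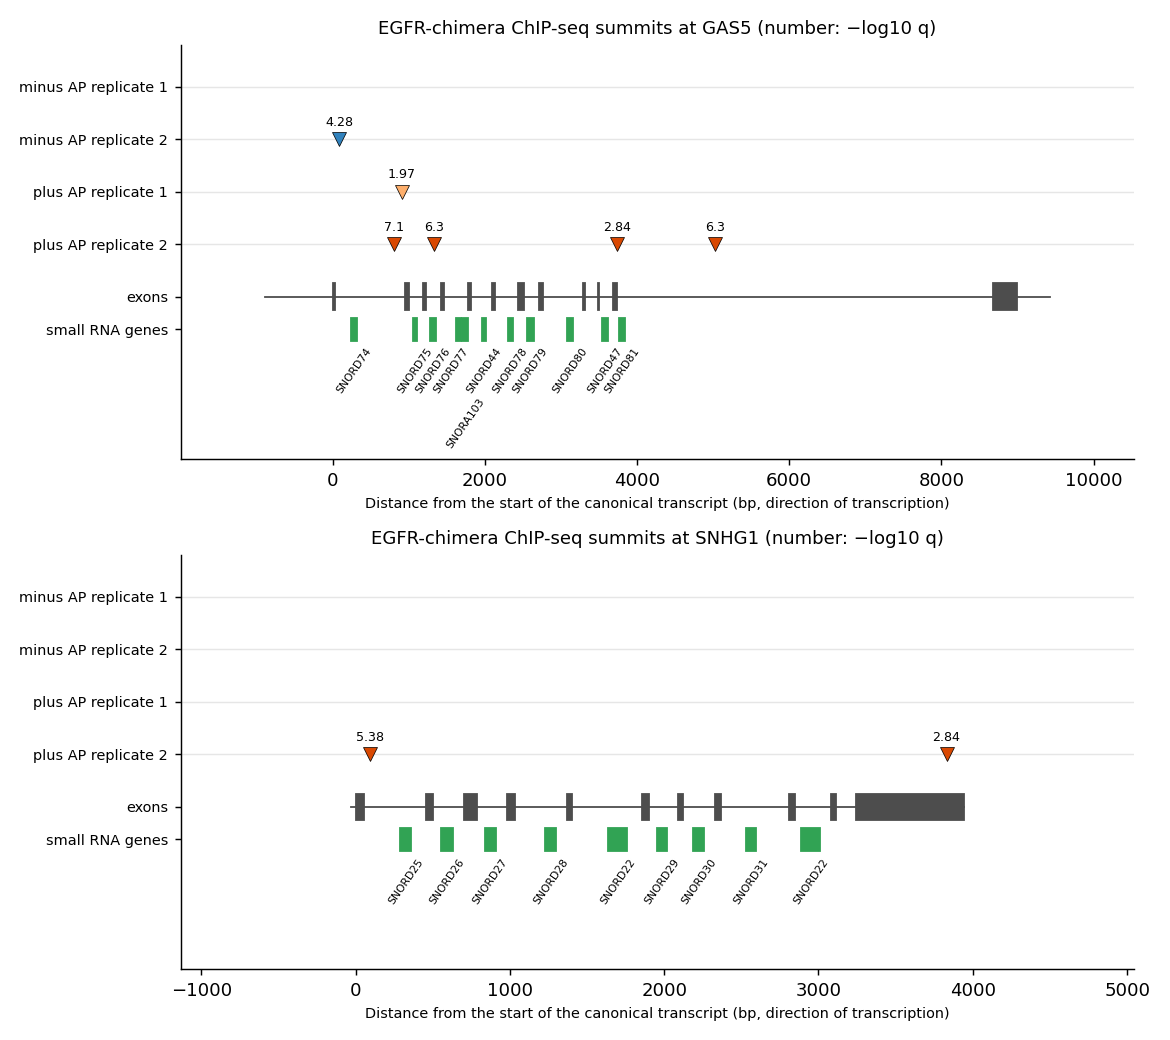
Summits (triangles) at GAS5 (top) and SNHG1 (bottom) by library (rows) against the distance (bp) to the canonical start (x axis), with the −log10 q of each above it, exons as dark boxes and snoRNA genes in green. Of the 8 summits, 6 are in plus AP replicate 2, 4 of them at GAS5 and 2 at SNHG1.

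UCA1, an lncRNA first described in bladder cancer, had a single summit, 816 bp past its 3′ end in plus AP replicate 2 (3.50, rank 177 of 297). It lay in the extension, so UCA1 had none inside its own limits. The nearest summits of the other lists were 1.99 Mb to 3.03 Mb from the gene. MIR22HG, the host of miR-22, had none in any list, and its nearest summits were 5.77 Mb to 41.6 Mb away. SNHG12, which carries H/ACA snoRNAs and SNORD99, had none either, with the nearest 71.8 kb away in minus AP replicate 1, at SNHG3, RCC1 and SNORA73A, and 65.4 kb to 65.6 kb away in the other 3, at TAF12 and RNU11.

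Among the 22 summits 12 were in introns, 4 in exons, 1 upstream of the canonical start and 5 past the end of the gene. 6 of the 22, at MIR205HG, GAS5 and SNHG1, were within 500 bp of the canonical start. 11 were within 500 bp of the start of some annotated transcript, since these genes have many. 2 were inside a small RNA gene, MIR205 and SNORD76, and the median distance of the 21 summits at hosts to the nearest small RNA gene was 818 bp. The summits of the hosts thus lay more often beside their small RNAs than on them, as a description of a chosen set. Most of each host lies outside its small RNA genes, so this order is no result about them. MIR205HG holds 1 such gene, 110 bp of its 4032 bp. The share is larger in GAS5, with 11 such genes, and in SNHG1, with 9. Whether the summits depart from the share of sequence so covered was not tested.

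By rank, 3 of 5 member summits stood above the middle of the list of minus AP replicate 1 and 3 of 4 in that of minus AP replicate 2. With AP this held for 1 of 4 in replicate 1 and for 6 of 9 in replicate 2. In plus AP replicate 2 the best ranks of GAS5, SNHG1 and UCA1 were 61, 88 and 177 of 297, and MIR205HG held rank 1. The member summits made up 0.677% and 7.14% of the minus AP lists and 0.366% and 3.03% of the plus AP lists, in order of replicate. Of the summits within 1000 bp of any gene they were 3.45% and 7.27% without AP and 1.94% and 3.17% with AP.

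**Figure D4:**
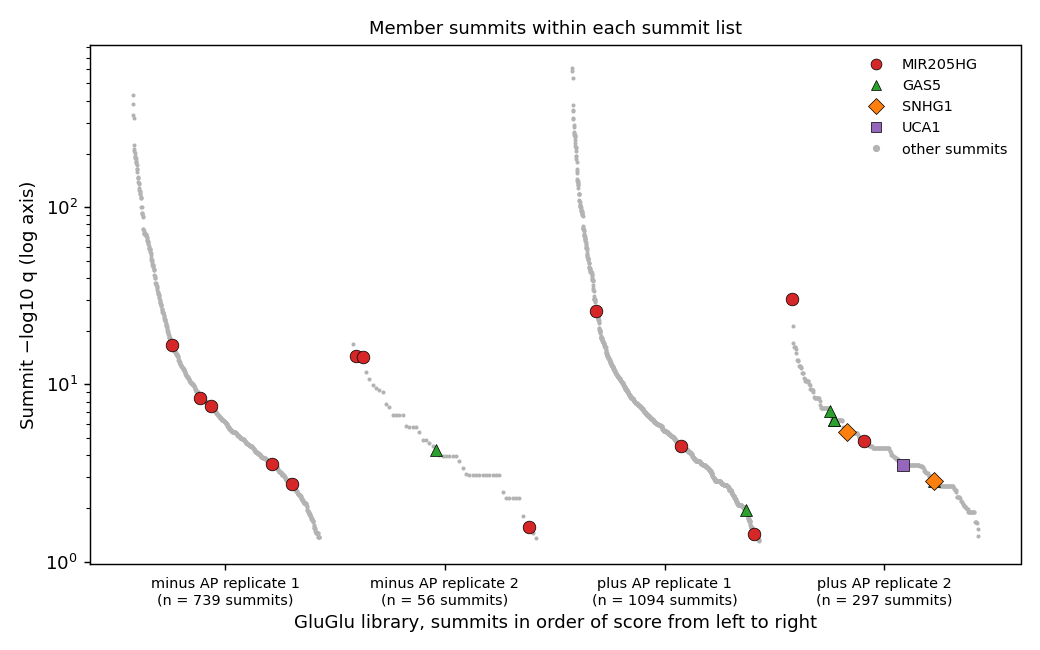
Score of every summit (−log10 q, log axis) in each GluGlu library, in order of score from left to right within a library, with member summits coloured by gene and other summits in grey. MIR205HG holds the top score of plus AP replicate 2 at 30.4, and in that library 2 GAS5 summits coincide at 6.30 and a GAS5 and an SNHG1 summit coincide at 2.84.

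The sequence around the summits had no exact repeat of read length. Of the 75-bp sequences within 250 bp of each of the 22 summits, none occurred a second time in the 194 contigs searched. Alternate and fix contigs were left out, and inexact copies were not sought. Over the whole extended genes the share of unique 75-bp sequences was 100% in MIR205HG, MIR22HG and SNHG1, 99.8% in GAS5, 99.7% in UCA1 and 98.5% in SNHG12. Of the 2 genes without a summit, MIR22HG and SNHG12, the latter had the lowest share of the 6. The part of repeated sequence in the missing summits was not tested.

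RefSeq promoter windows, 250 bases before to 50 after the start, were matched for 5 of the 6 genes, without UCA1. The GC content was 50.3% for MIR205HG, 37.7% for GAS5, 72.3% for MIR22HG, 60.0% for SNHG1 and 67.3% for SNHG12, with a median of 58.7% over 35116 promoters. The start of the window lay 1 bp from the canonical start in MIR205HG and 37 bp in SNHG1, but 1056 bp in GAS5, 964 bp in MIR22HG and 1113 bp in SNHG12, so that for these 3 the window is not that of the canonical transcript. Only the MIR205HG window contained summits. The intron 1 summit of SNHG1, at 62855831, lay just beyond the downstream end of its window, counted from a RefSeq start at 62855885.

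4 motifs were searched in the windows on both strands. CCAAT, the box bound by NF-Y, was present once in MIR205HG, 3 times in GAS5 and 2 times in MIR22HG, and in 34.6% of all promoters. GGGCGG, the GC box of Sp1, was present 3 times in MIR22HG, once in SNHG1 and 2 times in SNHG12, and in 45.0% of all. TATAAA, the letters of the TATA box, was present once in SNHG1 and in 11.5% of all. The SNHG1 match was on the opposite strand and began 39 bases past the RefSeq start, not before it. TGANTCA, the site of AP-1 factors, was in no window of the members and in 7.71% of all. A match describes letters in these windows only.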

How the data were processed

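ChIP-seq summits of the EGFR chimera were analysed in 4 GluGlu libraries, 2 without and 2 with AP. The authors sequenced paired 75-bp reads, aligned them to GRCh38 with Bowtie2 2.2.9, kept reads that mapped once and were no duplicates, and ran MACS2 2.2.7.1 separately for each library. FastQC 0.11.5 and bcl2fastq are also named in the submitters' processing notes. Peaks were called against input chromatin according to the methods of the study, whereas its results mention naive IgG. Each deposited line holds a summit position and its −log10 q-value, and the number of reads is not in the lists, so no interval can be given for a summit. Libraries were mapped to conditions and replicates from their titles. Replicates are labelled biological, but nothing more is said of the cultures.

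Genes and canonical transcripts were taken from GENCODE 44, with RefSeq (GRCh38.p14) for small RNAs and promoters. All summits fell within the reference contigs, and 1841 of 1850 microRNA genes had the same coordinates in both annotations. Summits of 2 lists were called shared within 1000 bp. Computations used Python 3.11.15, numpy 2.4.6, pandas 2.3.3 and numba 0.67.0, and were tested on simulated data. Figures were drawn with matplotlib 3.10.9. The text names all 6 genes, their summits and small RNA genes, genes that overlap them, and other hosts with a summit in both lists of a condition. The members, gene lists and settings were chosen with earlier results of these data known, and no test was run on them. Alternatives changed gene limits, minimum score, merging, list length, windows, the definition of a host and the replicates used.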

Additional observations from a re-analysis of the deposited data

How the results depend on the processing

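Of 100 alternative values, 77 were within 1.5 times the reported count. Without the extension, minus AP replicate 1 had 3 member summits in place of 5. At a score of at least 2, and at a score of at least 3, plus AP replicate 1 had 1 member (MIR205HG) and 2 summits, and both plus AP lists held 1 member in place of 2. With each list cut to the 56 highest scores, 0 members and 0 summits remained in each replicate 1 list and 1 member with 1 summit in plus AP replicate 2, so 0 members were in both lists of either condition or in all 4. Member summits shared between the minus AP lists fell from 7 within 1000 bp to 4 within 250 bp, and those between the plus AP lists from 8 to 6. Within 500 bp of a small RNA gene there were 8 summits in place of 2, and with the start of any transcript 11 in place of 6. Hosts by name, 116 in place of 312 genes, numbered 3 and 5 without AP and 7 and 15 with AP, against 8, 6, 10 and 20. With RefSeq small RNA genes added without regard to strand, chosen after seeing the data, 535 hosts gave 9, 7, 12 and 21 genes in the 4 lists. With 1 replicate left out, the presence of a member in the remaining lists gave 1 to 2 members without AP, 2 to 4 with AP and 1 to 2 in both conditions. The higher value was in each case that without replicate 1. No fit was made, so none could be repeated with a replicate block. Depth is unknown, so a missing summit sets no limit on binding.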

Other observations

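Of the 312 lncRNA genes that contain a small RNA gene, 25 had a summit in at least 1 list, 12 of these in a single list, and 10 of the 12 in plus AP replicate 2. 5 hosts other than MIR205HG had a summit in both lists of a condition. NEAT1, the architectural RNA of paraspeckles, had 5 and 4 summits without AP and 8 and 7 with AP. SNHG3, the host of SNORA73A, had 1 and 1 without AP and 2 and 5 with AP. ZFAS1 had none without AP and 1 and 4 with AP, SNHG26 none and 1 and 3, and SNHG19 none and 1 and 2, in order of replicate. The last 3 thus had summits in both lists with AP and none detectable without it. The plus AP lists were the longer, with 1094 against 739 summits in replicate 1 and 297 against 56 in replicate 2. Of the 312 hosts, 1.92% had a summit in both plus AP lists and 0.962% in both minus AP lists. Of all lncRNA genes these shares were 0.111% and 0.053%. A difference with AP was not tested.

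9 of the 18866 lncRNA genes had a summit in all 4 lists, against 10 in both minus AP lists and 21 in both plus AP lists. Among the 9, MIR205HG had 13 summits, NEAT1 24 and MALAT1 10, the last an abundant nuclear RNA whose antisense gene TALAM1 shares its 10. Summits per kb of extended gene were 2.16 at MIR205HG, 1.53 at ENSG00000270117, which lies within MALAT1, 1.3 at SNHG3, 0.988 at TALAM1, 0.969 at NEAT1 and 0.804 at MALAT1. The other 3 genes were at 0.421 or lower.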
